A study of Mus musculus with 21 samples.

Results

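Cultured Py8119 cells were compared with cultured Py117 cells across all measured genes, to describe what separates the pure lines when no host tissue is present. The members were the 6 culture arrays among the 21 arrays of the series, 3 for each line, chosen by their titles. Both lines are mouse mammary carcinoma cells, described in the labels as clones from MMTV-PyMT transgenic mice, in which the promoter of mouse mammary tumour virus drives the middle T oncogene of polyomavirus in mammary epithelium. Each line stands for itself, since no other line of either kind was profiled. Cells of both lines grew untreated in Ham's F12K medium with 5% fetal bovine serum. Py117 tumours and Py8119 tumours (5 arrays each), grown untreated from cells of each line placed in mammary fat pad 4, served only as a second set of arrays, and 5 mixed tumours entered a pooled estimate of spread. Strain and age of the mice were not given in the sources used here.

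Middle T oncoprotein acts at the membrane by binding SRC family kinases, SHC and phosphatidylinositol 3-kinase, so it feeds the same signalling routes as growth factor receptors. Mammary carcinoma cells can keep an epithelial form, with tight cell contacts and a basement membrane, or take a mesenchymal form, in which those contacts are lost and matrix, motility and developmental genes are used instead. Between such forms, growth factor supply, surface receptors, nutrient transporters and immune signals can differ as well as the junction genes. Those other genes are described here, and 44 epithelial and 27 mesenchymal genes were set aside. Of the set-aside genes, 39 of the 44 epithelial ones were called lower in Py8119 cells, while the mesenchymal ones went both ways, with 13 called higher and 5 lower.

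Values are log2 signals per gene, so a difference of 1 is a 2-fold difference. Arrays of the same line correlated across 22180 genes with r from 0.984 to 0.994 and arrays of different lines with r from 0.945 to 0.954. The median SD of a gene over the 3 arrays was 0.132 in Py117 and 0.153 in Py8119 cells. Py8119 culture 2 had the lowest median signal, 5.65 against 5.77 to 5.93 on the other 5 arrays. Signal at background was read from 1394 olfactory and vomeronasal receptor genes, whose 95th percentile in culture was 5.35. Where all 3 arrays of a line lay under that value, the difference is given as a lower bound against it. Marker lists of other cell types had medians near background in both lines, 5.14 to 5.71 in Py117 and 5.04 to 5.41 in Py8119 cells. Single markers could lie higher. Over background in at least 1 line were 9 of 15 endothelial, 8 of 11 adipocyte, 6 of 12 fibroblast and 8 of 14 muscle and nerve markers. Ptprc, the pan-leukocyte surface protein CD45, read 4.78, 4.59 and 4.85 in Py117 and 3.70, 5.37 and 4.20 in Py8119 cells. The signal summed over 15 endothelial markers was 683 to 719 in Py117 and 594 to 718 in Py8119 cells on the linear scale. Of 21 leukocyte markers, 13 had means within background in both lines, and Cd14, which epithelial cells also express, was lower in Py8119 cells by -2.54. The signal summed over those 21 markers was 1646 to 1859 in Py117 and 933 to 1037 in Py8119 cells on the linear scale. Of 12 fibroblast markers, Pdgfra, Pdgfrb and Col3a1 were higher in Py8119 cells, and the summed signal was 561 to 622 in Py117 and 918 to 1091 in Py8119 cells. In RNA from whole cultures, fewer expressing cells and less RNA per cell cannot be told apart.

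Of 22180 genes, 5942 were called between the lines (26.8%), at a Benjamini-Hochberg adjusted p under 0.05 in limma. The calls comprised 3208 genes higher in Py8119 cells (14.5%) and 2734 lower (12.3%). Among the 13334 genes whose culture mean lay over background, 22.1% were called higher and 17.9% lower, and these shares are the fitter comparison for the gene lists that follow, most of which hold mainly expressed genes. Large differences were more often on the lower side. At 2-fold or more there were 558 higher (2.52%) and 938 lower (4.23%) genes, at 8-fold or more 31 and 139, and at 16-fold or more 6 and 56. The split between higher and lower depended on scaling. Centring each array on its median moved the median difference of all genes from -0.012 to 0.136 and the share of calls that were higher from 54% to 70.4%. The 6 arrays of a gene did not overlap between the lines for 9316 genes (42%).

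The gene with the largest rise in Py8119 cells was Slc38a1, a transporter of glutamine and other neutral amino acids. It read 5.86, 5.37 and 5.49 in Py117 and 10.74, 10.78 and 10.76 in Py8119 cells, a log2 difference of 5.19 ± 0.14 (SE, n = 3 and 3, limma adjusted p = 2.06e-06). The 3 Py117 arrays lay close to background and the 3 Py8119 arrays far above them. Praf2, a membrane protein of the secretory pathway, read 5.00, 5.01 and 5.08 in Py117 and 9.36, 9.39 and 9.28 in Py8119 cells, at least 15.9-fold higher. Tfap2b, which encodes the transcription factor AP-2 beta, read 4.93, 4.76 and 5.30 against 9.41, 9.19 and 9.15, at least 14.9-fold higher. Grem1, a secreted antagonist of bone morphogenetic proteins, read 5.65, 6.20 and 6.45 against 10.10, 10.37 and 10.29. In each of these genes all Py8119 arrays lay far above all Py117 arrays. Genes of the cytoskeleton and its anchors were also in this set. Parvb, a partner of integrin-linked kinase, was higher by 4.18 ± 0.18 and Flnc, a large actin crosslinker, by 3.50 ± 0.12. Eno3, the enolase typical of muscle, was higher by 3.62 ± 0.10. Vcam1, an adhesion molecule that binds leukocyte integrins, read 6.32, 5.81 and 6.33 in Py117 and 9.61, 9.66 and 9.54 in Py8119 cells.

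Larger differences were found in the other direction. Kcnma1, the pore of the large-conductance calcium-activated potassium channel, read 13.15, 13.19 and 13.24 in Py117 and 5.86, 5.33 and 5.38 in Py8119 cells, lower by -7.67 ± 0.15 (adjusted p = 1.5e-06, limma). Timp3, an inhibitor of metalloproteinases bound to the matrix, read 12.52, 12.65 and 12.51 against 4.96, 5.46 and 5.79 (-7.16 ± 0.20). Both genes were thus among the brightest in Py117 and near background in Py8119 cells. Mpzl2, a homophilic adhesion molecule, read 10.54, 10.76 and 10.72 against 4.81, 4.94 and 4.37, at least 40-fold lower. Fermt1, the epithelial kindlin that activates integrins, was at least 21.6-fold lower. Lcn2, a protein that binds bacterial iron carriers, differed by -5.56 ± 0.16, the receptor phosphatase gene Ptprf by -5.31 ± 0.16 and Car9, a membrane carbonic anhydrase, by -5.29 ± 0.39. For Car9 the Py8119 arrays were spread, at 6.12, 4.72 and 6.27. Bpifb4, a secreted lipid-binding protein of airway and oral epithelium, read 9.96, 10.17 and 10.12 in Py117 and 4.91, 4.99 and 5.55 in Py8119 cells. Of the 313 genes at least 4-fold lower, 28 belonged to the set-aside lists, and of the 119 at least 4-fold higher, 6 did. Those lists hold 44 and 27 measured genes, so most of the 313 had to lie outside them. Genes outside the lists can still be epithelial, such as Fermt1.

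Xist, the RNA that coats the inactive X chromosome of female cells, separated the lines fully. It read 9.70, 9.92 and 9.43 in Py117 and 4.34, 4.06 and 5.10 in Py8119 cells, at least 20.1-fold lower. Kdm6a and Kdm5c, X-linked histone demethylases known to be expressed from both X chromosomes of female cells, were lower in Py8119 cells by -0.83 ± 0.12 (adjusted p = 0.0019) and -0.40 ± 0.11 (adjusted p = 0.0324). Ddx3x, another X-linked gene, was not called. Of 7 measured sex chromosome genes, 3 were called lower as deposited, 2 after centring and 2 with replicate number as a block. On the X chromosome as a whole, 15.9% of 674 genes were called lower and 8.9% higher, against 14.8% and 17.1% of all 17115 genes placed on a chromosome. The X is among 11 chromosomes, grouped below, that together had 15.5% lower and 10% higher genes, so its shares were ordinary for that group.

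**Figure D1:**
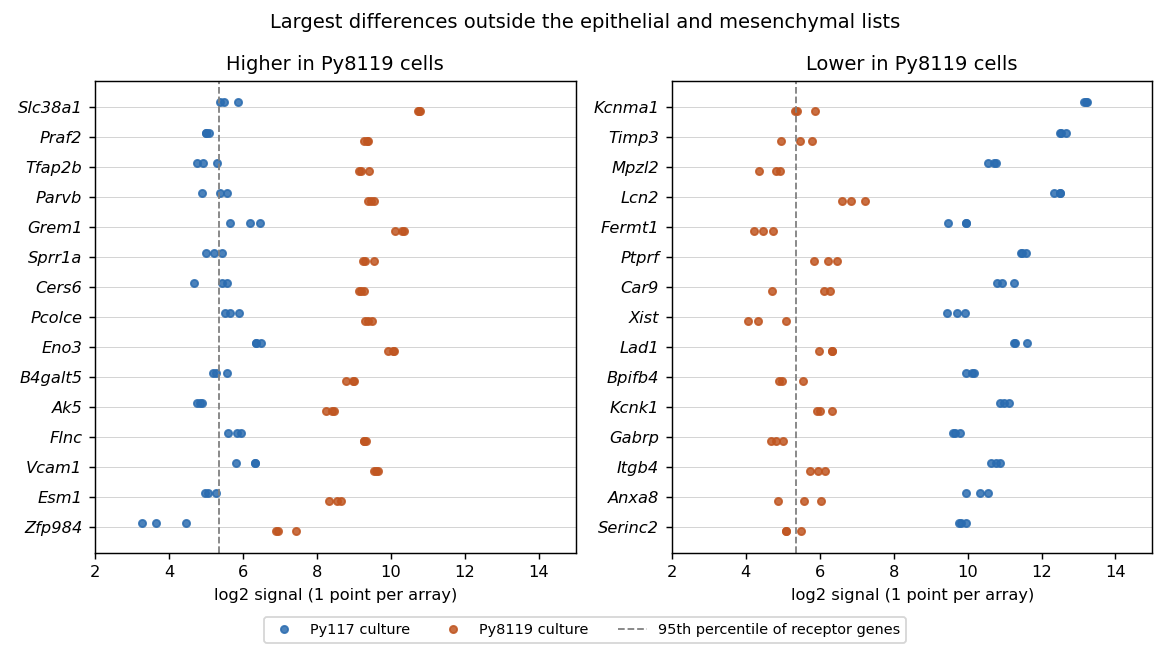
Log2 signal on each of the 6 culture arrays for the 15 genes with the largest called difference in each direction outside the epithelial and mesenchymal lists. Each point is an array, and the dashed line marks the 95th percentile of receptor genes (5.35). No gene shown has overlapping lines, and in several the lower line sits at the dashed line.

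Some genes were on in 1 line only, meaning under background on all 3 arrays of a line and at least 2 log2 units over it on all 3 of the other. This held for 12 genes in Py8119 and 45 in Py117 cells, of which 9 were on the set-aside lists. The 12 genes of Py8119 cells were Praf2, Tfap2b, Ak5, Esm1, Sgce, Steap1, Crabp1, Tenm3, Vegfd, Ubash3b, Glipr2 and Cgas. They share no single pathway by name. Tenm3, a neuronal adhesion receptor, read 5.03, 5.09 and 5.11 in Py117 and 8.20, 8.22 and 8.22 in Py8119 cells, and Crabp1, which binds retinoic acid, read 5.29, 5.25 and 5.24 against 8.38, 8.35 and 8.63. Among the genes of Py117 cells, Gabrp, a subunit of GABA-A receptors found in mammary epithelium, was at least 20.2-fold lower in Py8119 cells. Stk26, a kinase of the Golgi and cell polarity, was at least 9.96-fold lower and Phlda2, an imprinted growth restrainer of the placenta, at least 9.75-fold lower. Rbm47, an RNA-binding protein of epithelial cells, was at least 5.79-fold lower. These counts depended on where background was set, with 2 and 15 genes at the 90th percentile of receptor genes and 27 and 102 at the 99th.

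Calls were not spread evenly over the chromosomes. Genes were placed by RefSeq on GRCm38.p6, which gave 17115 genes on the autosomes and the X. On 8 chromosomes (3, 6, 8, 11, 13, 15, 18 and 19) between 25% and 33.9% of genes were higher in Py8119 cells. Together these 8 held 37.1% of the placed genes and 62.2% of the higher calls, with 28.7% of their genes called higher and 10.6% lower. On 11 others the shares were 10% higher and 15.5% lower. Chromosome 4 stood apart in the other direction, with 32.7% of its 1069 genes lower. The chromosomes were grouped by these very shares (at least 20% higher), so the shares are a description and not a test.

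On single arrays the shift was seen on most of these chromosomes. As deposited, an exception was Py8119 culture 2 on chromosome 11, whose median of -0.001 lay within the Py117 arrays (-0.009 to 0.009). That array was lower as a whole. Its median was -0.068 over all placed genes, against 0.020 and 0.004 on the other Py8119 arrays, and -0.111 over the 11 other chromosomes. Chromosome 11 thus lay above that array's own level. Over the genes of chromosome 8 the median difference from the Py117 mean was 0.188, 0.150 and 0.192 on the Py8119 arrays and -0.014 to 0.008 on the Py117 arrays. Over chromosome 4 it was -0.124, -0.273 and -0.146 on the Py8119 and -0.013 to 0.005 on the Py117 arrays. The shifts were small for any single gene and shared by many. The tumour arrays, which took no part in the grouping, gave medians on chromosome 8 of 0.129 to 0.190 in Py8119 and -0.047 to 0.025 in Py117 tumours. In tumours 35.3% of genes on the 8 chromosomes were called higher, against 18% on the 11 others and 24.4% of all placed genes. The median over the 11 other chromosomes was under 0 as deposited (-0.064) and above it after centring (0.085), so no direction is given for them.

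**Figure D2:**
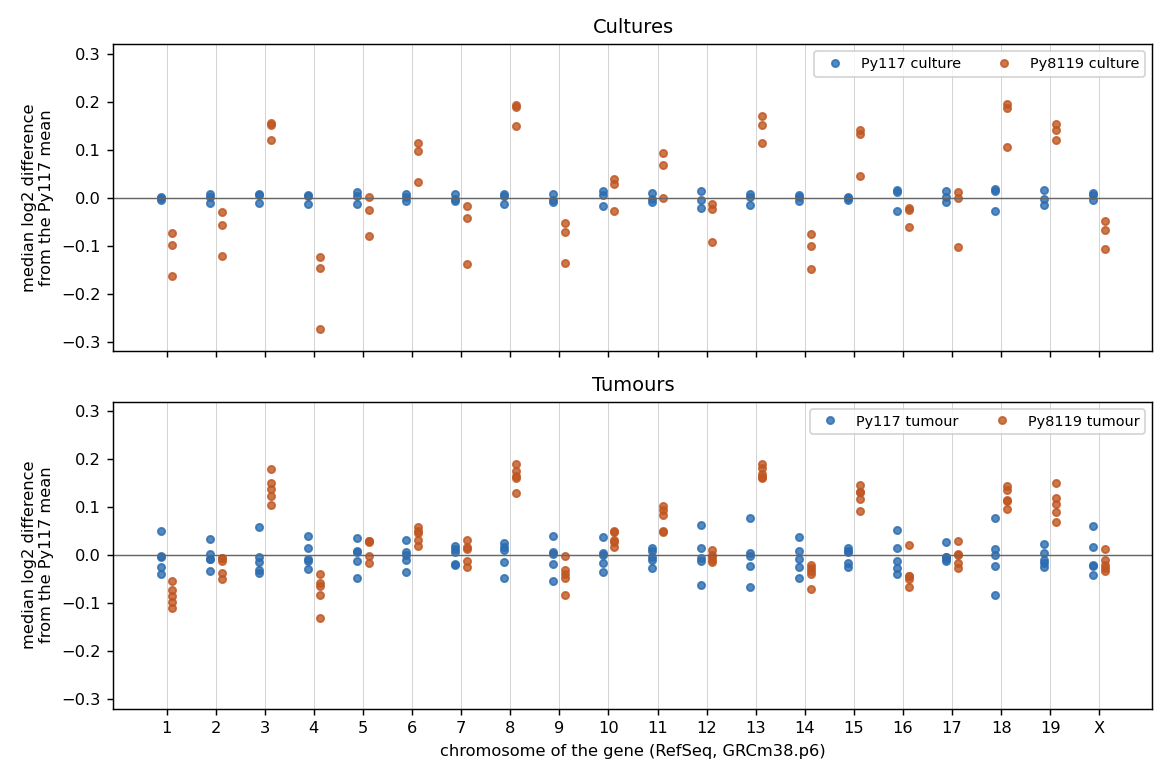
Median log2 difference from the Py117 mean over the genes of each chromosome, 1 point per array, for cultures (top) and tumours (bottom). All Py8119 arrays lie above all Py117 arrays on chromosomes 3, 8, 13, 15, 18 and 19 in both panels, and below them on chromosomes 1 and 4.

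Within chromosome 4 the lower genes lay in 1 long stretch. In windows of 20 neighbouring genes, the 5 lowest medians among 847 windows of the genome were all on this chromosome, from -0.87 to -0.67, against a 5th percentile of -0.259. The first 28 windows of chromosome 4, from Dhrsx to Cfap57 in gene order, held 560 genes, of which 285 were lower (50.9%) and 22 higher (3.93%). Of those windows, 26 had a median under 0. The 25 later windows, from Ebna1bp2 to Samd11, had 12.8% lower and 22.4% higher genes. The median difference was -0.454 in the first stretch and 0.018 in the second, and on single Py8119 arrays the first stretch stood at -0.410, -0.533 and -0.445. The border between the stretches was placed after the values were seen. In tumours 45.5% of the genes of the first stretch were lower and 6.96% higher, and 15.1% and 30.6% of the second.

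The lowest window of all held Mob3b (-1.82), Ddx58 (-1.38), which encodes the RNA sensor RIG-I, Chmp5 (-1.34), a subunit of the membrane-remodelling ESCRT machinery, and Aco1 (-1.28), the cytosolic aconitase that also senses iron. Ddx58 read 9.35, 8.96 and 9.17 in Py117 and 7.89, 7.76 and 7.70 in Py8119 cells. In another low window all 20 genes had a negative difference and 17 were called, among them Hpdl, Akr1a1 and Pik3r3, a regulatory subunit of phosphatidylinositol 3-kinase (-1.23). Car9 and the tropomyosin gene Tpm2 (-2.69) were neighbours in another low window. Some genes in the stretch went the other way. Cdkn2a, the locus of the growth inhibitors p16 and ARF, read 9.15, 9.20 and 8.95 in Py117 and 10.84, 10.65 and 10.84 in Py8119 cells (1.68 ± 0.11). Mmp16, Glipr2, Bnc2 and B4galt2 were the only other genes of the stretch that were at least 2-fold higher. At the other end, the highest windows lay on chromosomes 11, 8 and 15, with medians of 0.563, 0.479 and 0.454. The window on chromosome 15 holds Slc38a1 beside its relative Slc38a2, and a further one on chromosome 8 holds the metallothionein genes Mt1 and Mt2.

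**Figure D3:**
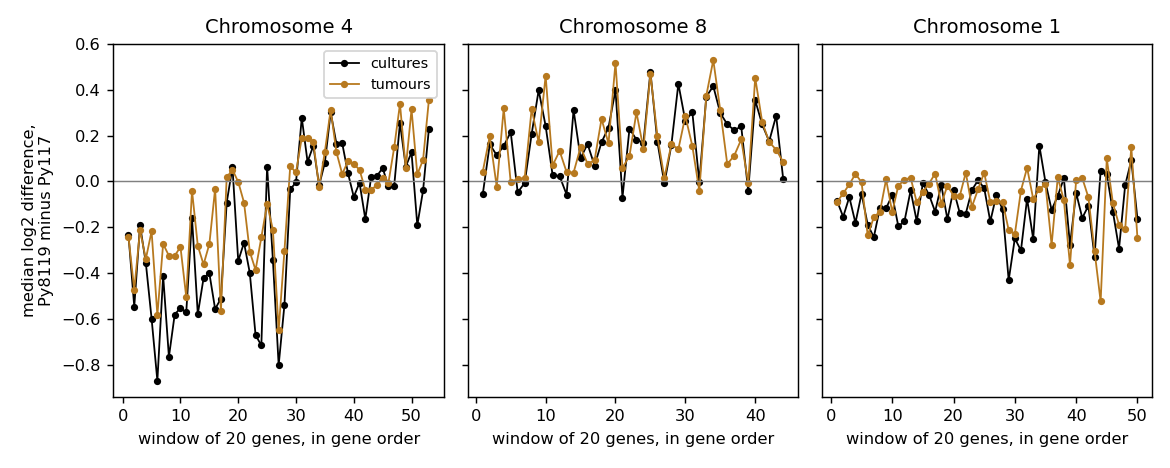
Median log2 difference, Py8119 minus Py117, in consecutive windows of 20 genes along chromosomes 4, 8 and 1, in cultures and tumours. On chromosome 4 the first 28 windows reach down to -0.87 in culture and the later ones lie between -0.191 and 0.302. Chromosome 8 lies mostly above 0, and chromosome 1 is shown as 1 of the 11 others.

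Receptors for growth signals differed in both directions. Of 30 receptor tyrosine kinases, 10 were lower and 5 higher, and 8 and 6 after centring. The list's median of -0.138 came to 0.01 after centring and carries no direction. Erbb3, the partner through which ERBB2 reaches phosphatidylinositol 3-kinase, read 8.53, 8.42 and 8.58 in Py117 and 5.40, 5.43 and 5.27 in Py8119 cells. Erbb2 was lower by -1.10 ± 0.10, whereas Egfr differed by -0.22 with a 95% interval from -0.49 to 0.06 and was not called. Ror1, a receptor of WNT5A, read 9.77, 9.63 and 9.43 against 6.01, 5.86 and 6.04. Met, the hepatocyte growth factor receptor, was higher by 0.50 ± 0.08 and Pdgfra, the alpha receptor of platelet-derived growth factor, by 1.44 ± 0.20.

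Ligands differed in both directions. Of 29 growth factor ligands, 7 were higher and 7 lower (24.1% each). All genes gave 14.5% and 12.3%, and all genes over background 22.1% and 17.9%. Over background in at least 1 line were 19 of the 29. Vegfd, a lymphatic growth factor, read 5.29, 5.31 and 4.99 in Py117 and 7.92, 8.02 and 8.26 in Py8119 cells, at least 6.55-fold higher. Vegfc, its relative, was higher by 2.30 ± 0.09, while Vegfa, the main ligand of blood vessel growth, was lower by -0.54 ± 0.10. Gdnf, which signals through RET, was higher by 2.21 ± 0.20. Epgn, an EGF receptor ligand, was at least 6.49-fold lower, and Tgfa, another, and Pdgfb were lower by -1.83 ± 0.14 and -3.11 ± 0.14.

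Of 50 genes of the Wnt pathway, 20 were lower and 1 was higher, with a median of -0.226 against -0.012 for all genes, and -0.077 after centring. The lower genes included 7 of 10 frizzled receptors and both activators and inhibitors of the pathway. Sfrp1, a secreted inhibitor, read 10.16, 9.83 and 9.76 in Py117 and 6.25, 6.40 and 5.48 in Py8119 cells. Nkd2, an intracellular antagonist, differed by -3.77 ± 0.11, Notum, an extracellular Wnt deacylase, by -2.58, and Lgr4, a receptor of R-spondins, by -2.32 ± 0.15. Wnt5a, a ligand of the non-canonical branch, was the higher gene, at 5.80, 5.90 and 5.79 against 7.16, 6.88 and 7.12. Of 47 TGF-beta and BMP genes, 21 were lower and 7 higher (median -0.334), and 14 and 7 after centring (median -0.186). With the replicate block 15 were lower. The latent TGF-beta binding protein gene Ltbp2 was lower by -4.18 ± 0.20, the follistatin gene Fst by -2.43 ± 0.22, the ligands Tgfb3 and Tgfb2 by -2.26 ± 0.10 and -1.23 ± 0.20 and the receptor Tgfbr1 by -1.88 ± 0.14. Tgfb1 was higher by 0.34 ± 0.10. Id1, a direct target of BMP signalling, read 9.40, 9.39 and 9.38 in Py117 and 7.82, 7.73 and 8.04 in Py8119 cells. Its relatives Id2 and Id4 were lower too (-1.17 ± 0.15 and -2.58 ± 0.14).

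Of 38 cytokine receptor genes, 16 were lower and 4 higher. Il18r1, the binding chain of the interleukin 18 receptor, read 9.28, 9.51 and 9.60 in Py117 and 5.33, 5.26 and 5.04 in Py8119 cells, at least 17.3-fold lower. Osmr and Lifr, the signalling partners for oncostatin M and leukaemia inhibitory factor, differed by -3.62 ± 0.20 and -2.41 ± 0.16. Il6ra (0.99) and the costimulatory receptor gene Tnfrsf9 (1.45) were higher.

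Anchorage to the matrix differed in its receptors and in the matrix itself. Of 19 integrins, 10 were lower and 3 higher. Itgb4, the laminin receptor of hemidesmosomes, read 10.63, 10.77 and 10.87 in Py117 and 6.15, 5.96 and 5.75 in Py8119 cells, and Itga2, a collagen receptor chain, 10.33, 10.92 and 10.99 against 7.94, 7.91 and 7.95. The fibronectin receptor chain Itga5 was higher by 0.93 ± 0.09. Of 50 proteoglycan and matricellular genes, 16 were lower and 6 higher. Bgn, the small proteoglycan biglycan, read 10.96, 11.01 and 10.99 against 7.73, 7.71 and 7.83, the elastic fibre gene Fbln5 differed by -3.63 ± 0.24 and the aggrecan gene Acan by -3.59 ± 0.20. Thbs1, the gene of the matricellular protein thrombospondin 1, was lower by -1.71 ± 0.12. Fbln2, a fibulin of basement membranes, was higher, at 6.79, 7.04 and 6.74 in Py117 and 10.18, 10.03 and 10.17 in Py8119 cells.

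Among 35 metalloproteinase and inhibitor genes 9 were higher and 9 lower, and 12 and 6 after centring. Both sides held proteases. Beside Timp3, the membrane-anchored inhibitor gene Reck was at least 3.32-fold lower. The membrane-type protease gene Mmp16 was at least 3.85-fold higher and the gelatinase gene Mmp9 was higher by 1.19 ± 0.15, whereas the proteases Adam12, Adamts5 and Adamts1 were lower by -2.76 ± 0.24, -2.44 ± 0.24 and -2.12 ± 0.13. The inhibitor gene Timp1 was not called, at 10.13, 10.74 and 10.74 in Py117 and 10.36, 10.64 and 10.61 in Py8119 cells.

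Transcription factors of embryonic patterning differed in both directions. Of 77 in the list, 19 were higher and 26 lower, with 10 and 8 at least 2-fold. Beside Tfap2b, the higher genes included Gata6, an endoderm and mesoderm regulator (5.99, 6.22 and 6.32 in Py117, 8.79, 8.83 and 8.92 in Py8119 cells), Dlx3 (2.14 ± 0.13), Foxf1, a mesenchymal forkhead factor (2.12 ± 0.15), and the stem cell factor Sox2, at least 3.50-fold higher. Lower genes included Dlx5 (-3.49 ± 0.22) and the luminal pioneer factor gene Foxa1 (-1.26). The forkhead gene Foxq1 was at least 5.90-fold lower and Elf5, a regulator of milk-secreting alveolar cells, at least 1.79-fold lower. Within the AP-2 family the lines expressed different members. Tfap2c, an AP-2 factor of mammary epithelium, read 8.90, 8.67 and 8.46 in Py117 and 5.14, 5.09 and 5.72 in Py8119 cells, the reverse of Tfap2b. Hox genes, which mark position along the body, were seldom called: 2 of 36, both lower, with 15 of the 36 over background.

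Promoters of the genes that differed were searched for a pair of short motifs on both strands. The windows came from RefSeq (GRCm38.p6) and ran from 250 bases before to 50 after each start, and 16918 measured genes had at least 1. CACCTG, the E-box bound by the zinc finger factors SNAI2 and ZEB1, was found in 34.9% of 292 promoters of genes at least 4-fold lower in Py8119 cells, in 15.4% of 104 promoters of genes at least 4-fold higher and in 19.9% of all 20520 promoters. Snai2 itself read 6.94, 7.19 and 6.54 in Py117 and 10.48, 10.44 and 10.51 in Py8119 cells, and Zeb1 was at least 3.86-fold higher. Among the lower genes, the motif was in 80% of 20 promoters of set-aside genes and in 31.6% of 272 promoters of the rest. GCCNNNGGC, the palindrome bound by AP-2 factors, was in 27.4% of the promoters of lower genes, 21.2% of those of higher genes and 20% of all. These are matches of letters, and binding was not measured. The promoters of the 3 lowest genes outside the set-aside lists that held the E-box and had a single promoter entry show where it lies, with the motif, or its reverse complement CAGGTG, in capitals.
Timp3, GRCm38.p6 chr10:86300162-86300461, plus strand: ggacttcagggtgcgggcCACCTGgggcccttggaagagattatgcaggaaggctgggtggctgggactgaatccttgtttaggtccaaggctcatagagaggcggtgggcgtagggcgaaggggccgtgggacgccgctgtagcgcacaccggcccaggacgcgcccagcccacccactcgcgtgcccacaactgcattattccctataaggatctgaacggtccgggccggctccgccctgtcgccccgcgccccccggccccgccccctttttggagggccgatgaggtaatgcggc
Car9, GRCm38.p6 chr4:43506776-43507075, plus strand: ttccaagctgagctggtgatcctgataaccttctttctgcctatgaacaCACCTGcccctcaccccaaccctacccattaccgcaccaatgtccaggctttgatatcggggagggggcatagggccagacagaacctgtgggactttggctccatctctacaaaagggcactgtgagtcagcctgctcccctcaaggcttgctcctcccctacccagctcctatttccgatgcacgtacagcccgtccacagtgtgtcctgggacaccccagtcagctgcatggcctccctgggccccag
Kcnk1, GRCm38.p6 chr8:125994852-125995151, plus strand: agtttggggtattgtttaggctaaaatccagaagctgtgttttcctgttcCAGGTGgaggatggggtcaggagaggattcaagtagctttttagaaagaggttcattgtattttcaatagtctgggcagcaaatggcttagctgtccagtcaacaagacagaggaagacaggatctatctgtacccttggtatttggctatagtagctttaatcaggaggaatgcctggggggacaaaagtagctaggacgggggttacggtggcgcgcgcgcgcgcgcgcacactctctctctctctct
Each of these promoters held the motif once, with its first base at -232, -201 and -200 from the start.

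Some ion channel and glycan genes differed widely. Of 58 ion channel genes, 12 were lower (20.7%) and 2 higher (3.4%), against 12.3% and 14.5% of all genes. Only 36 of the 58 lay over background in at least 1 line, so the shares of genes over background are no like comparison here. Beside Kcnma1, Kcnk1, a background potassium channel, read 11.11, 10.99 and 10.88 in Py117 and 6.34, 6.00 and 5.94 in Py8119 cells, and Trpv4, a calcium channel opened by stretch and heat, 10.02, 10.21 and 10.21 against 5.70, 5.64 and 5.40. Kcnk5, an acid-sensitive potassium channel, was higher by 2.50 ± 0.15. Of 50 mucin and glycosylation genes, 18 were lower and 7 higher. Galnt3, which starts O-glycans, differed by -4.35 ± 0.14, Fut9, a fucosyltransferase of the Lewis X antigen, was at least 5.16-fold lower, and Has2, a hyaluronan synthase, was lower by -2.02 ± 0.17. The chondroitin sulfotransferase gene Chst11 was higher by 2.20.

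DNA replication and repair genes were higher in Py8119 cells, by small amounts in many genes. Of 30 replication genes, 22 were higher and 1 lower (73.3% and 3.3%), with a median of 0.443. Mcm2, a subunit of the replicative helicase, read 9.98, 9.83 and 9.80 in Py117 and 10.92, 10.95 and 10.75 in Py8119 cells, and Cdt1, which loads that helicase, 8.89, 8.87 and 8.78 against 9.75, 9.80 and 9.85. Tk1, thymidine kinase, was the lower gene (-0.73). Of 49 repair genes, 27 were higher and 4 lower (median 0.345). Fancd2, a centre of the Fanconi anaemia pathway, was higher by 0.99 ± 0.09, and the homologous recombination genes Rad51d and Brca2 by 1.00 ± 0.15 and 0.89 ± 0.10. Of the 4 lower genes, 3 lie on chromosome 4, Nbn, Xpa and Fancg, and the fourth was Mgmt, the direct reversal enzyme of alkylated guanine (-0.78 ± 0.16). Position moved with these calls: 13 of 16 repair genes on the 8 chromosomes were higher, against 14 of 29 on the 11 others. For replication genes the counts were 9 of 10 on the 8 chromosomes and 12 of 18 on the 11 others. Proteasome and ribosomal genes were taken along as housekeeping lists. Of 30 proteasome genes, 10 were called, all higher, and 9 of these were among the 11 on the 8 chromosomes, the tenth on chromosome 4. The count of 10 came to 6 without Py117 culture 3. Of 32 ribosomal genes 7 were higher and 5 lower, and the 5 became 1 after centring and 3 without Py117 culture 1, Py117 culture 3 or Py8119 culture 3. The part of chromosome position in these list counts was not tested.

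Cell cycle regulators had more higher than lower calls in Py8119 cells, and p53 targets more lower than higher calls. Of 40 cyclins, kinases and inhibitors, 14 were higher (9 without Py117 culture 1, and 9 without Py117 culture 3) and 5 lower. These shares were 35% and 12.5%, against 22.1% and 17.9% of all genes over background. Higher calls were 6 of 11 on the 8 chromosomes, 5 of 23 on the 11 others and 3 of 6 on chromosome 4. Ccnd2 was higher by 1.48 ± 0.11 and Myc by 0.37 ± 0.10, while Ccnd1 differed by -0.23, with a 95% interval from -0.45 to -0.01, and was not called (adjusted p = 0.127). Cdkn1a, the inhibitor p21 and a classic p53 target, read 10.08, 10.19 and 10.10 in Py117 and 7.96, 8.26 and 8.32 in Py8119 cells. Among the 33 measured targets of p53, calls were lower for 18 and higher for 3 (54.5% and 9.1%), with a median of -0.6. Beside Cdkn1a, the lower genes included Perp, a desmosomal death effector that is also a set-aside epithelial gene (-3.57 ± 0.09), Trp53inp1, a stress-response cofactor (-2.81 ± 0.26), Phlda3, an inhibitor of AKT (-1.75 ± 0.13), and Mdm2, the ligase that degrades p53 (-0.73 ± 0.11). On the 11 other chromosomes 13 of 18 p53 targets were lower and on the 8 chromosomes 4 of 12, where the shares of all genes were 15.5% and 10.6%. Plk2, Rrm2b and Tigar were the 3 higher targets.

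Of 34 death receptor and apoptosis genes, 13 were lower and 4 higher, and 10 and 6 after centring. Fas read 7.04, 7.02 and 6.93 in Py117 and 5.94, 5.85 and 5.95 in Py8119 cells, and Tnfrsf10b, the receptor of TRAIL, 9.52, 9.57 and 9.57 against 8.35, 8.45 and 8.44. The survival gene Bcl2l1 was also lower (-1.11 ± 0.08), so the lower genes of the list include opposed roles. The pore-forming gasdermin genes Gsdmd and Gsdme were higher by 1.56 ± 0.14 and 1.50 ± 0.09.

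Amino acid supply genes were higher more often than the other metabolic genes described here. Of 50 transporters and enzymes of amino acid and serine metabolism, 23 were higher and 9 lower (46% and 18%), with a median of 0.366. Bcat1, which starts the breakdown of branched-chain amino acids, read 5.72, 5.98 and 6.50 in Py117 and 9.14, 9.27 and 9.26 in Py8119 cells. Slc1a5, a glutamine exchanger, was higher by 1.59 ± 0.16, as were the serine synthesis genes Phgdh (1.06 ± 0.16) and Psat1 (1.17 ± 0.12), the mitochondrial folate gene Mthfd2 (1.43 ± 0.18), the cysteine synthesis gene Cth (1.38 ± 0.13) and the asparagine synthetase gene Asns (0.83 ± 0.11). Transport was not uniformly higher. Slc38a3, another glutamine carrier, went against Slc38a1, at 9.85, 9.36 and 9.22 in Py117 and 5.48, 5.89 and 5.64 in Py8119 cells. Of 26 genes of the list on the 8 chromosomes 16 were higher, and 7 of 24 on the 11 others.

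Other metabolic lists were mixed. Among 32 glycolysis genes, 8 were higher and 5 lower (3 without Py8119 culture 2). These shares, 25% and 15.6%, were near the 22.1% and 17.9% of all genes over background. Higher calls were 8 of 19 on the 8 chromosomes and 0 of 12 on the 11 others. Beside Eno3, the muscle-type phosphofructokinase gene Pfkm and the lactate exporter gene Slc16a3 were higher by 1.43 ± 0.10 and 1.33 ± 0.18. Among 50 glutathione, NRF2 and detoxification genes, 10 were higher (6 without Py8119 culture 1) and 18 lower. Ephx1, an epoxide hydrolase, read 10.59, 10.70 and 10.71 in Py117 and 6.31, 5.83 and 6.17 in Py8119 cells, and Nqo1 and Nfe2l2, a quinone reductase and the gene of NRF2, differed by -1.61 ± 0.15 and -0.92 ± 0.10. Hmox1, haem oxygenase 1, was higher by 1.96 ± 0.12, and Mt2, a metal-binding metallothionein, read 7.18, 7.24 and 7.32 against 10.30, 10.60 and 10.46. Of 19 cholesterol synthesis genes, 1 was higher and 1 lower, a share under that of all genes.

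**Figure D4:**
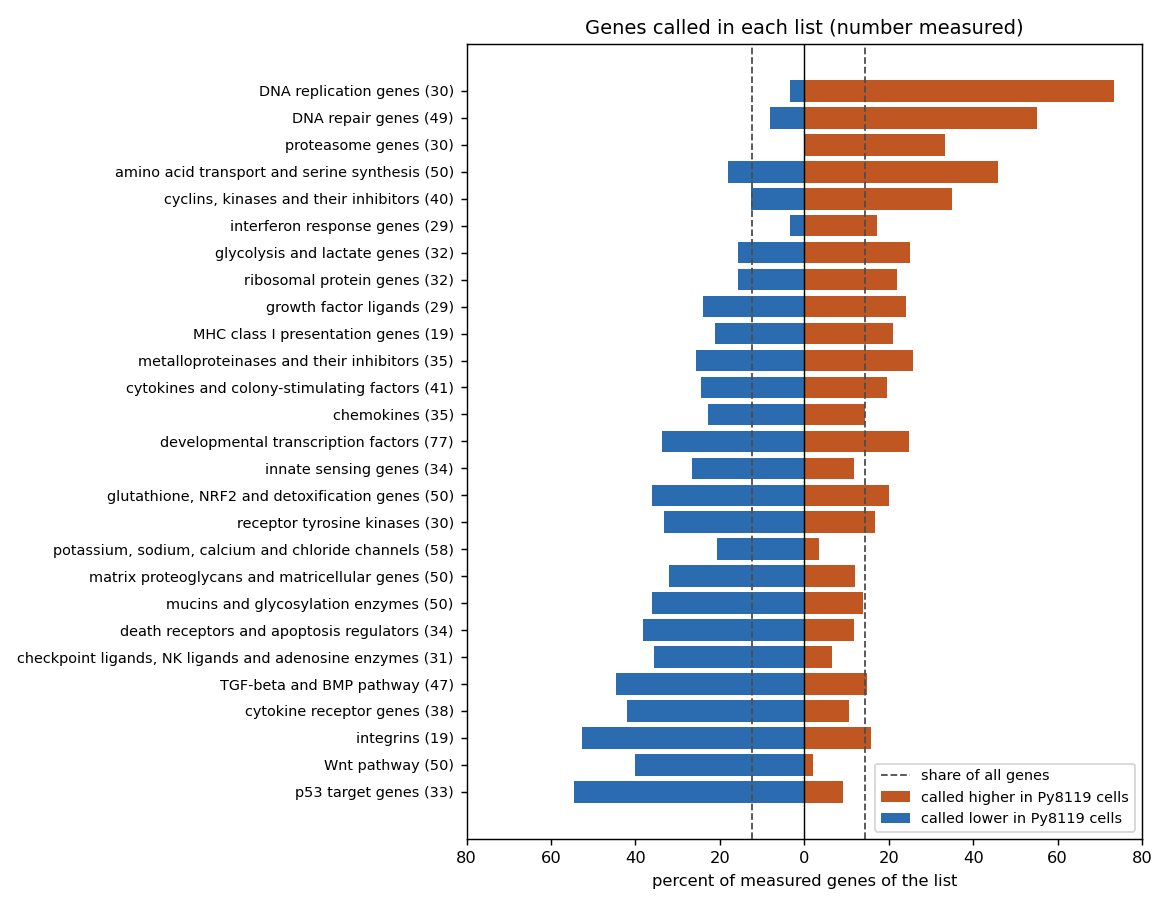
Share of the measured genes of each list called higher (right) or lower (left) in Py8119 cells, with the number measured in brackets. Dashed lines mark the shares among all 22180 genes, 14.5% higher and 12.3% lower. The shares among genes over background, 22.1% and 17.9%, are the fitter comparison for most lists and are not drawn. DNA replication genes reach 73.3% on the higher side and p53 target genes 54.5% on the lower side.

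Genes through which tumour cells meet the immune system differed in both directions within most lists. Among 34 innate sensing genes, 4 were higher and 9 lower. Cgas, the sensor of cytosolic DNA, was within background in Py117 cells (5.08, 5.18 and 5.13) and present in Py8119 cells (7.46, 7.59 and 7.48), at least 4.46-fold higher. Its adaptor gene Sting1 was well expressed in both and lower in Py8119 cells, by -0.79 ± 0.14. Tlr3 and Ifih1, sensors of double-stranded RNA, were lower by -2.37 ± 0.11 and -1.31 ± 0.22, as was Ddx58. Among 29 genes of the interferon response, calls were higher for 5 (17.2%) and lower for 1 (3.4%). Higher calls came to 3 without Py8119 culture 3. The higher share lay between the 14.5% of all genes and the 22.1% of all genes over background. The lower share was under the 12.3% and 17.9% of the same sets. Over background in at least 1 line were 22 of the 29. Higher calls were 4 of 13 on the 8 chromosomes and 1 of 15 on the 11 others. Bst2, which tethers budding viruses, was the member of the list with the largest difference (1.66 ± 0.12).

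Antigen presentation genes went both ways, with 4 of 19 higher and 4 lower (21.1% each). These shares were near the 22.1% and 17.9% of all genes over background. B2m, the light chain of class I molecules, read 11.59, 11.67 and 11.73 in Py117 and 12.39, 12.34 and 12.40 in Py8119 cells, and Psmb10, an immunoproteasome subunit, was higher by 1.88 ± 0.14. H2-K1, a class I heavy chain, differed by -0.09 with a 95% interval from -0.45 to 0.28. The non-classical gene H2-T23, a ligand of NKG2A, was lower by -1.40 ± 0.27. Cd274, which encodes PD-L1, was near background in both lines (5.03, 5.49 and 5.54 against 5.84, 5.44 and 6.27) and was not called (adjusted p = 0.17). Of 31 checkpoint, NK ligand and adenosine genes, 11 were lower and 2 higher. Cd276, which encodes B7-H3, was lower by -2.40 ± 0.14 and Nt5e, the ectonucleotidase CD73 that makes adenosine, read 9.03, 9.42 and 9.56 in Py117 and 7.97, 8.04 and 8.13 in Py8119 cells. Lgals9, the gene of galectin 9, was higher by 1.75 ± 0.13. The danger signal genes Hmgb1 and Calr differed by 0.001 (95% interval -0.23 to 0.23) and -0.09 (-0.33 to 0.15).

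Chemokine and cytokine genes differed in both directions. Of 35 chemokine genes 5 were higher (14.3%) and 8 lower (22.9%), and 8 and 8 after centring. All genes gave 14.5% and 12.3%, and all genes over background 22.1% and 17.9%. Over background in at least 1 line were 26 of the 35. Of 41 cytokine genes 8 were higher (19.5%) and 10 lower (24.4%). The count of 8 came to 5 without Py117 culture 1, and to 5 without Py117 culture 3. Cxcl5, which attracts neutrophils, read 9.88, 10.18 and 9.35 in Py117 and 6.95, 6.49 and 6.85 in Py8119 cells, and Cxcl1 was lower by -1.60. Cxcl2 and Cxcl3 were called lower too, but within background on all 6 arrays. Csf3, the granulocyte growth factor G-CSF, read 9.06, 9.18 and 8.78 against 6.02, 5.03 and 5.53. Tslp, an epithelial alarmin, differed by -4.49 ± 0.19 and Cxcl16, a membrane-bound chemokine, by -4.44 ± 0.20. Ccl5, Cxcl10 and Ccl2, attractants of T cells or monocytes, were higher by 2.93 ± 0.17, 2.08 ± 0.14 and 1.53 ± 0.28. The macrophage growth factor genes Csf1 and Il34 were higher by 0.34 ± 0.09 and 1.07 ± 0.18. Csf2 was called higher (0.40), yet it lay within background on all 6 arrays, as did Il6, which was not called.

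Some miRNA genes were covered by probe sets for their precursors, which do not measure the mature miRNA. Of 478, 27 were called higher and 20 lower. Among the 130 over background in at least 1 line, 6 were higher and 12 lower, so the balance turned with that filter and carries no direction. Both counts are low for their number, against 22.1% and 17.9% of all genes over background. The mature sequences (RefSeq, GRCm38.p6) of 5 members known in carcinoma, picked after their values were seen, follow with the seed, bases 2 to 8, in capitals, since the seed sets which transcripts a miRNA can pair with. No seed is shared among them.
miR-31-5p, chr4:88910614-88910635, minus strand: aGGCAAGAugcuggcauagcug
miR-140-3p, chr8:107551288-107551308, plus strand: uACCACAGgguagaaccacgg
miR-27a-3p, chr8:84208727-84208747, plus strand: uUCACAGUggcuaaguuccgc
miR-23a-3p, chr8:84208563-84208583, plus strand: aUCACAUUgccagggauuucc
miR-199a-5p, chr9:21496537-21496559, minus strand: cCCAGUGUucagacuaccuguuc
Mir31 read 7.66, 8.52 and 8.06 in Py117 and 6.28, 6.47 and 6.57 in Py8119 cells (-1.63 ± 0.21), and Mir140 6.69, 6.81 and 5.93 against 4.55, 4.42 and 4.82, at least 2.18-fold lower. Mir27a and Mir23a, neighbours on chromosome 8, were lower by -0.74 ± 0.17 and -0.61 ± 0.15, although their chromosome had more higher genes. Mir199a-1 was under background in Py117 cells and just over it in Py8119 cells, at 5.77, 5.39 and 5.57, at least 1.17-fold higher.

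Most differences of the cultures were also present between the tumours, which share no array with them. Of the 558 genes at least 2-fold higher in culture, 458 were called higher in Py8119 than in Py117 tumours (82.1%), against 21% of all genes, and 21 were called lower. Of the 938 lower genes, 763 were called lower in tumours (81.3%), against 16.5% of all genes, and 29 higher. All 12 genes on in Py8119 cells alone were higher in Py8119 tumours, and 42 of the 45 genes on in Py117 cells alone were lower. The exceptions among the 45 were Bpifb3, Epgn and Artn, a ligand of the RET family of receptors, which were not called in tumours. In tumours the median difference was 1.00 for the higher genes (1.38 in culture) and -1.09 for the lower genes (-1.57 in culture). The genes were selected on the culture values, and tumours also hold host cells. Whether the differences are weaker in tumours was not tested. In tumours as a whole, 784 genes were at least 2-fold higher and 1169 lower, and 35.7% and 43.9% of these were in the culture sets.

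**Figure D5:**
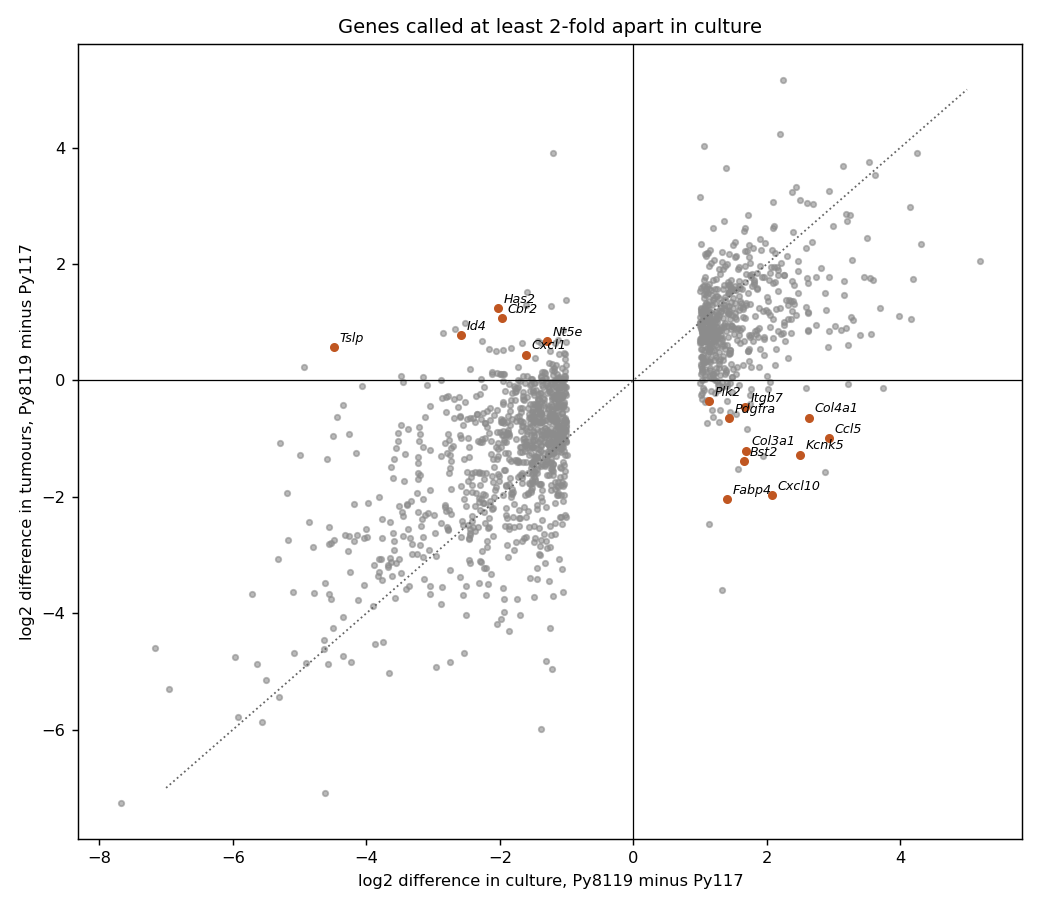
Log2 difference, Py8119 minus Py117, in culture (x axis) and in tumours (y axis) for the 1496 genes called at least 2-fold apart in culture, 1 point per gene. The dotted line marks equal differences. Named orange points are described genes that were called in opposite directions, such as Tslp and Ccl5.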

How the data were processed

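Expression was read on Affymetrix whole-transcript arrays, labelled with the WT PLUS assay from total RNA. The authors deposited log2 values per probe set, and RMA and limma are named without versions per the submitters' processing notes. The build behind the array annotation was not given in the sources used here. Of 41345 probe sets, 23521 carried a single gene symbol in the platform table and gave 22180 genes. For 1082 genes with several probe sets, that with the highest mean over all 21 arrays was kept. Lines were compared with lmFit and eBayes (limma 3.58.1, R 4.3.3) on the 6 culture arrays, tumours in a separate fit of 15 tumour arrays, with Benjamini-Hochberg adjustment over all genes. In the sources used here nothing but the word biological in the titles describes the replicates, so p-values measure the spread between these cultures, and 3 arrays a line limit precision. Simulated data held 67, 67 and 66 of 22180 genes changed by 0.5, 1 and 2 log2 units. The fit recovered 20.9%, 82.1% and 95.5% of them. Far fewer genes were changed there than were called between the lines, so these shares do not carry over to the cultures. Members and lists were chosen with earlier results of these data known. The text names the 15 largest called differences in each direction outside the set-aside lists, up to 6 called genes per list with the largest difference, members the list's biology turns on, genes set in advance and up to 4 genes of extreme windows. Other genes named were picked after their values were seen. Gene order and sequences came from RefSeq GRCm38.p6, matched by gene ID. The alternatives tried were other scalings, filters, probe set rules, variance models and left-out arrays.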

Additional observations from a re-analysis of the deposited data

Results flagged for a closer look

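For 16 of the named genes, the lines were called in opposite directions in cultures and in tumours. The change itself, the tumour difference minus the culture difference, had an adjusted p under 0.05 in limma for each of them. The choice of genes all but fixes this outcome, which held for 48 of the 48 such genes at least 2-fold apart in culture, so the p-values are given as a description and not as support. The change was positive, the gene being lower in Py8119 cultures and higher in Py8119 tumours, for Tslp (5.06, adjusted p = 1.35e-08), Id4 (3.36, 4.42e-06), Has2 (3.26, 4.21e-06), Cbr2 (3.03, 2.75e-05), Cxcl1 (2.05, 7.77e-07) and Nt5e (1.97, 0.00287). It was negative, the gene being higher in Py8119 cultures and lower in Py8119 tumours, for Cxcl10 (-4.05, 0.000156), Ccl5 (-3.93, 8.65e-07), Kcnk5 (-3.77, 0.00106), Fabp4 (-3.44, 0.0396), Col4a1 (-3.28, 9.14e-07), Bst2 (-3.05, 2.96e-06), Col3a1 (-2.89, 0.000107), Itgb7 (-2.13, 1.92e-05), Pdgfra (-2.09, 5.04e-06) and Plk2 (-1.50, 8.59e-06). Tumours hold host cells beside the injected line, and their part in these changes was not tested. Some of the means lay near the culture background of 5.35. Fabp4 averaged 4.09 in Py117 and 5.49 in Py8119 cultures, and Tslp 5.28 in Py117 and 5.85 in Py8119 tumours.

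Single tumour arrays stood apart in 2 of 40 groups of 5, which covered these 16 genes and the medians of chromosomes 4, 8, 11 and 15 in both kinds of tumour, and chance sets about 1 in 20 groups apart. For Tslp in Py117 tumours the highest array read 6.05 and the others 4.93 to 5.25, a gap of 0.715 of the range. For Ccl5 in Py8119 tumours the lowest array read 8.84 and the others 9.15 to 9.26, a gap of 0.733 of the range.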

How the results depend on the processing

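No direction of the 350 named called genes reversed under centring, quantile normalization, the replicate block or any left-out culture, and 7 to 17 of them lost their call under each. The genes called higher in Py8119 culture numbered 1935 at an adjusted p under 0.01 and 2258 to 2968 without single cultures. The genes called lower in Py8119 culture numbered 1718 and 2061 to 2565. Deviations of same-numbered cultures of the lines correlated weakly (r of 0.053, 0.135 and 0.04), and those of other-numbered cultures had r from -0.104 to 0.067. Whether the numbers mark shared handling was not tested. With the replicate block 2789 genes were higher and 2396 lower. Centring each array moved some list counts: chemokines higher 8 (as deposited 5), proteoglycans higher 10 (6), ribosomal genes lower 1 (5) and amino acid genes lower 5 (9), the last also 5 with quantile normalization. Without single cultures, the higher counts ranged from 3 to 5 for interferon genes, 5 to 7 for cytokines, 9 to 12 for cyclins, 6 to 8 for glutathione genes and 6 to 10 for proteasome genes, and the lower counts from 3 to 6 for glycolysis and 3 to 5 for ribosomal genes. Genes on in Py8119 or Py117 cells alone numbered 2 and 15 with background at the 90th percentile and 27 and 102 at the 99th. With windows of 40 genes the highest median was 0.393. Alternatives for chromosome shares were added after seeing the data. Among genes over background, 45% on the 8 chromosomes and 17.7% on the 11 others were higher. After centring, 15.1% on the 11 others were higher and 7.66% of the later stretch of chromosome 4 lower. Without single cultures, 6.53% to 9.28% on the 11 others were higher. Values near 0 that were not called changed sign: Il6 (-0.0355 with quantile normalization, -0.1048 to 0.2586 without single cultures), Hmgb1 (-0.0258 with quantile normalization, -0.0365 to 0.0687 without single cultures), Calr (0.0566 centred) and H2-K1 (0.0596 centred, -0.2468 to 0.0431 without single cultures). Causes of these shifts were not tested. Genes at background have no reliable order.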
